A study of Mus musculus with 11 samples.

Results

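The Hox genes of the mouse mandibular arch were examined on 11 Affymetrix arrays of mandibular arch tissue from ICR embryos, an outbred stock with no allele or agent named in the labels. Every gene whose single symbol in the array annotation was Hox, a cluster letter from a to d and a number was taken, which gave 33 Hox genes with 48 probe sets among 18194 genes with 34958 probe sets of a single symbol. The array held 45101 probe sets in all. Each gene had 1 value per array, from its probe set with the highest mean after quantile normalization. The clusters A, B, C and D contributed 9, 9, 7 and 8 genes. Hox genes without a probe set of their own symbol were not analysed here as members.

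Medial tissue, cut from the distal end of the arch, was measured on 1 array at E9.7, 3 arrays at E10.5, 2 arrays at E11.5 and 1 array at E14.5. Lateral tissue, the remainder of the arch, was measured on 1 array at E9.7 and 3 arrays at E10.5. At E14.5 the labels name the tongue and its anterior part, so the tissue taken changed along with the stage. Each RNA sample pooled 40 embryos, and the p-values below measure only the spread between arrays, which may be technical. In whole tissue, fewer cells of a type and less RNA per cell cannot be told apart. The tissue label was checked on 12 markers of arch mesenchyme. All 12 had a group mean above the median of all values in at least 1 group, against 69.2% of all genes. On every array 8 of them were above it, among them Prrx1, Twist1 and Hand2. Of all genes, 57% had means above it in all 6 groups, so the 8 of 12 says little about the tissue. Dlx5 and Dlx6, which mark the arch, averaged 3.85 and 3.61 at E11.5 and were 4.50 and 3.73 at E14.5, under the median of all values.

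Hox genes encode homeodomain transcription factors that stand in clusters and carry a paralogue number by their place in the cluster. Low numbers are used far forward in the embryo, from the hindbrain and pharyngeal arches, and high numbers towards the tail and the ends of the limbs. The mandibular arch is the part of the body axis best known for its lack of Hox expression in neural crest cells, while the arch behind it depends on Hoxa2. Loss of Hoxa2 in mice gives that arch skeletal elements of the mandibular kind, and forced Hox expression in mandibular crest disturbs jaw formation.

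The promoters of 2 members are shown because the results turn on them: Hoxa2, the only Hox gene called when all genes were tested, and Hoxd8, the only one past a 2-fold limit at E14.5. Both are from RefSeq (GRCm38.p6), 300 bases around the start of the gene, read 5′ to 3′ on the strand of the gene. Hoxa2 lies on chr6:52164782-52165081 on the minus strand, and Hoxd8 on chr2:74704365-74704664 on the plus strand. Capitals mark a match to TGATNNAT, searched on both strands, a composite site of the kind bound by a Hox protein with its partner Pbx.
Hoxa2: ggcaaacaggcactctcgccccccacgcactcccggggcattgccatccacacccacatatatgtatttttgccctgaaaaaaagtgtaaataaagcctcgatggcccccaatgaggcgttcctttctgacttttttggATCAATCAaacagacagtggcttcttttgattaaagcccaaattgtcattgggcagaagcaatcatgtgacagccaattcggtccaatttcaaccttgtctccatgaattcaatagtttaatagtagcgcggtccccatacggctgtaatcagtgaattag
Hoxd8: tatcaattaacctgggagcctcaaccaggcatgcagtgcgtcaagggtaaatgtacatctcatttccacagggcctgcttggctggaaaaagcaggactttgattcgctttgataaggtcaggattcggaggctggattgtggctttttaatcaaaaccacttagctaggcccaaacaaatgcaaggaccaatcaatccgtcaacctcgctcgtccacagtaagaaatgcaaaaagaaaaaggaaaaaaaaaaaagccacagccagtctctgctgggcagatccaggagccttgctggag
The motif occurred once in the Hoxa2 promoter and not in these bases of the Hoxd8 promoter. It occurred in 3 of 21 Hox promoters in the table, which covered 19 of the genes, and in 8.85% of all 32851 promoters of that length. The Hoxa2 and Hoxd8 windows held 9 and 6 CpG dinucleotides, against a median of 15 over the 21 Hox promoters and 7 over all promoters. No methylation or binding was measured, and a match is only a description of the letters.

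Most Hox genes lay in the dim part of the arrays. After quantile normalization the median of all values was a log2 signal of 4.86, and 10 of 33 Hox genes had a group mean above it in at least 1 of 6 groups, against 69.2% of all 18194 genes. These were Hoxb2, Hoxa3, Hoxb3, Hoxb4, Hoxa5, Hoxa7, Hoxd8, Hoxa9, Hoxc9 and Hoxd9. Being above the median is a level of signal, not a detection call, and no detection p-values were used here. Probe sets bind their targets to different degrees, so the levels below are not ranked between genes.

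By paralogue number, 1 of 4 genes of paralogues 1 and 2, 4 of 9 of paralogues 3 to 5, 2 of 6 of paralogues 6 to 8 and 3 of 14 of paralogues 9 to 13 were above the median in some group. Signal above the median was therefore not limited to the low numbers that mark the hindbrain and pharyngeal arches. Within the last class all 3 were of paralogue 9, where 3 of 4 genes were above. No gene of paralogues 1, 6, 10, 11, 12 or 13 was above. Nearest to the limit, Hoxd9 reached 4.93 in lateral tissue at E10.5, while Hoxc6 reached 4.86 at E14.5 and stayed just below the unrounded median.

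**Figure D1:**
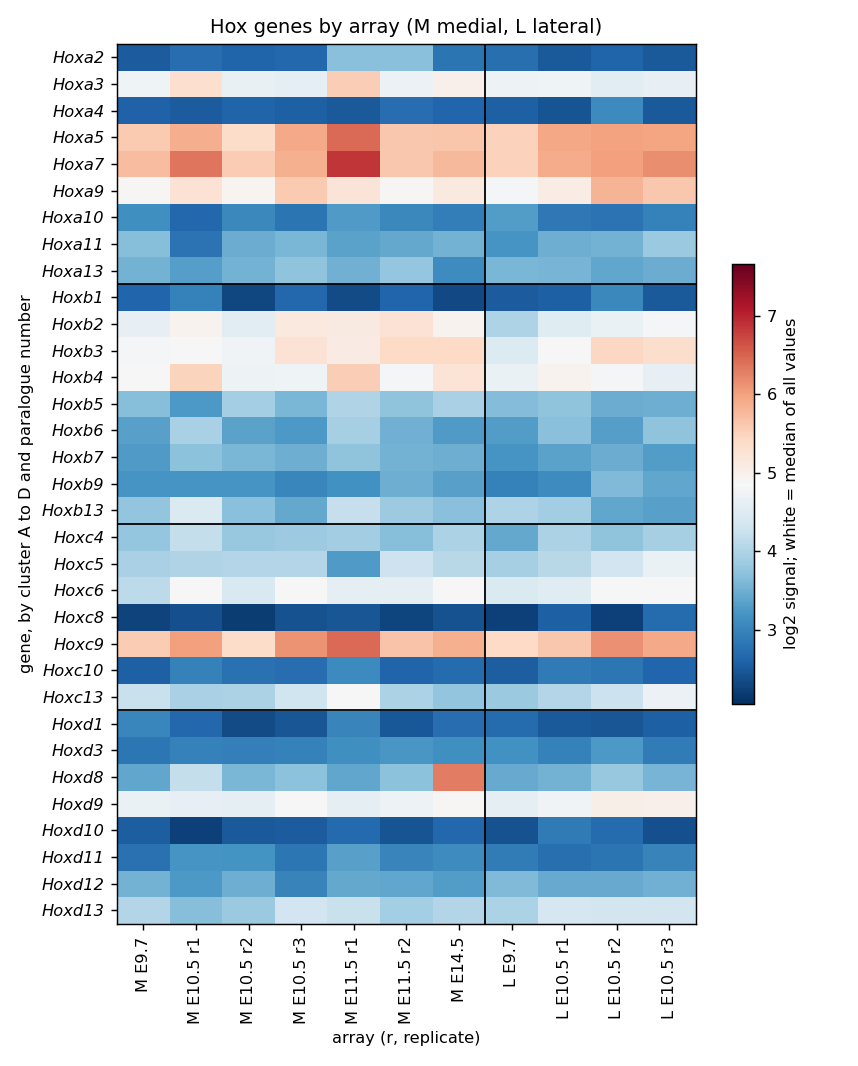
Log2 signal of the 33 Hox genes (rows, by cluster and paralogue number) on 11 arrays (columns, medial left of lateral, stages from early to late), with white at 4.86, the median of all values. Hoxa5, Hoxa7 and Hoxc9 were above that median on all 11 arrays, and Hoxd8 only at E14.5.

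Counted by group, medial tissue had 4 Hox genes above the median at E9.7, 7 at E10.5, 8 at E11.5 and 10 at E14.5. Lateral tissue had 3 at E9.7 and 6 at E10.5. The same shares of all genes were 60.9%, 61.8%, 62.4% and 66.4% in medial tissue by stage, and 60.2% and 62.1% in lateral tissue. Hoxa5, Hoxa7 and Hoxc9 were above the median in all 6 groups, that is 3 of 33 Hox genes against 57% of all genes. The counts rest on genes close to the limit, and above it on every array of the group there were 4, 4, 6 and 10 in medial tissue by stage, and 3 and 4 in lateral tissue.

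The 23 genes that were not above the median in any group had values from 2.21 to 4.88, with a median of 3.30. Olfactory receptor genes, a family used in the nose with little known use in the embryonic arch, served to describe dim signal. Over 38 such genes the values had a median of 3.35 and a 95th percentile of 4.33, and 0 of them had a group mean above 4.86. On all 11 arrays, 18 of 33 Hox genes stayed under 4.33. Among those 18 were both genes of paralogue 1, Hoxb1 at 2.32 to 3.05 and Hoxd1 at 2.35 to 3.04, which act in the hindbrain. Of the genes of the tail and limb ends, Hoxa10, Hoxc10, Hoxd10, Hoxa11, Hoxd11, Hoxd12 and Hoxa13 had no value above 3.82. Hoxb13, Hoxc13 and Hoxd13 reached 4.45, 4.85 and 4.39. The highest values of Hoxb13 and Hoxc13 came from the arrays of low deposited signal described below. On the other arrays these genes reached 4.0 and 4.69. The second Hoxd13 probe set had no value above 4.02.

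**Figure D2:**
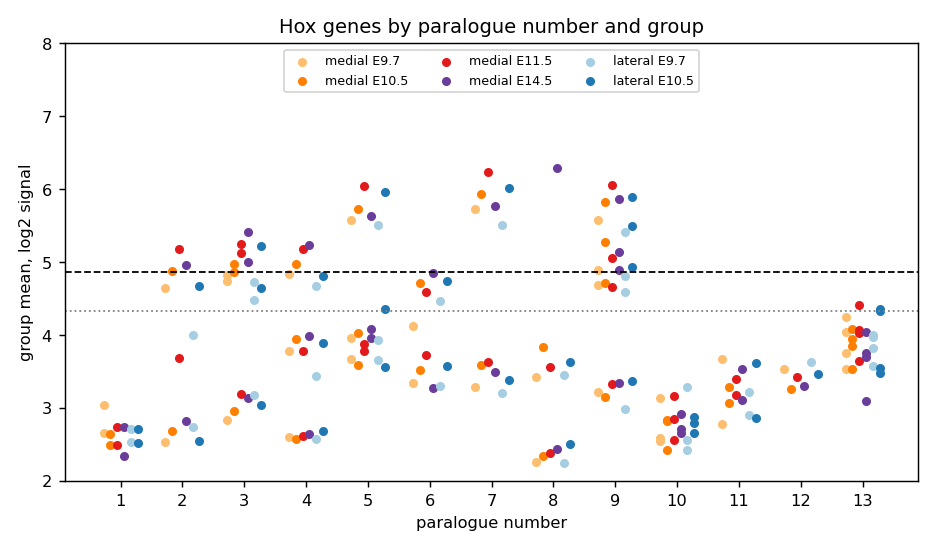
Group means of log2 signal (y axis) of the 33 Hox genes by paralogue number (x axis), coloured by group, with the median of all values, 4.86 (dashed), and the 95th percentile of olfactory receptor genes, 4.33 (dotted). Means above 4.86 occurred at paralogues 2, 3, 4, 5, 7, 8 and 9.

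Hoxa5, Hoxa7 and Hoxc9, which pattern the neck and chest levels of the trunk, were above the median on all 11 arrays. In medial tissue Hoxa7 had log2 signals of 5.74 at E9.7, 6.36, 5.57 and 5.87 at E10.5, 6.85 and 5.61 at E11.5, and 5.77 at E14.5. In lateral tissue it had 5.51 at E9.7 and 5.89, 6.0 and 6.17 at E10.5. The highest values, 6.85 and 6.36, came from the arrays of low deposited signal described below. The groups of more than 1 array overlapped, and the lateral E9.7 array was the lowest of the 11.

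Hoxa5 in medial tissue had 5.58 at E9.7, 5.87, 5.37 and 5.93 at E10.5, 6.45 and 5.62 at E11.5, and 5.64 at E14.5. In lateral tissue it had 5.51 at E9.7 and 5.93, 6.0 and 5.96 at E10.5. Before rounding, each lateral array at E10.5 was above each medial one, a separation also seen in 25% of all genes tested. Hoxa5 was read by a probe set of the x_at kind, which by the maker's naming can bind other transcripts, and the other Hoxa5 probe set stayed between 2.57 and 3.44. On that other probe set the direction was opposite. Each medial array at E10.5 was above each lateral one, with a difference of 0.10.

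Hoxc9 in medial tissue had 5.58 at E9.7, 6.0, 5.37 and 6.11 at E10.5, 6.45 and 5.67 at E11.5, and 5.86 at E14.5. In lateral tissue it had 5.41 at E9.7 and 5.61, 6.14 and 5.93 at E10.5. Medial and lateral arrays overlapped at E10.5, as did E11.5 and E10.5.

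Hoxa9, known from posterior body levels and blood precursors, had medial signals of 4.89 at E9.7, 5.27, 4.94 and 5.60 at E10.5, 5.23 and 4.89 at E11.5, and 5.14 at E14.5. The lateral signals were 4.81 at E9.7 and 5.07, 5.81 and 5.61 at E10.5. It was above the median on 10 of 11 arrays, with lateral E9.7 the exception. Hoxd9, a gene of the trunk and limb, had medial signals of 4.68 at E9.7, 4.64, 4.62 and 4.88 at E10.5, 4.59 and 4.72 at E11.5, and 4.89 at E14.5. Its lateral signals were 4.58 at E9.7 and 4.77, 5.02 and 5.01 at E10.5. Hoxd9 crossed the median on 4 of 11 arrays.

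The genes of paralogues 2 to 4 pattern the hindbrain and the arches behind the jaw. Hoxb2, a hindbrain gene, had medial signals of 4.64 at E9.7, 4.96, 4.55 and 5.14 at E10.5, 5.10 and 5.26 at E11.5, and 4.96 at E14.5. Its lateral signals were 3.99 at E9.7 and 4.53, 4.68 and 4.81 at E10.5. It was above the median on 5 of 11 arrays, all of them medial. E11.5 and E14.5 had no lateral array for comparison. At E10.5 the medial and lateral arrays overlapped (adjusted p = 0.579 by limma).

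Hoxb3 had medial signals of 4.83 at E9.7, 4.87, 4.77 and 5.27 at E10.5, 5.09 and 5.41 at E11.5, and 5.41 at E14.5, against lateral signals of 4.48 at E9.7 and 4.85, 5.45 and 5.36 at E10.5. Hoxb4 had medial signals of 4.84 at E9.7, 5.48, 4.73 and 4.74 at E10.5, 5.55 and 4.81 at E11.5, and 5.24 at E14.5, against lateral signals of 4.67 at E9.7 and 4.97, 4.82 and 4.63 at E10.5. Hoxa3, which is needed for the thymus and parathyroid, had medial signals of 4.74 at E9.7, 5.32, 4.64 and 4.61 at E10.5, 5.56 and 4.70 at E11.5, and 5.0 at E14.5, against lateral signals of 4.73 at E9.7 and 4.74, 4.54 and 4.64 at E10.5. For Hoxb4 and Hoxa3 the highest values, as for Hoxa7, came from the same pair of low-signal arrays, and all groups of more than 1 array overlapped.

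Signal above the median came from 1 probe set per gene in most cases. Of 11 Hox genes with more than 1 probe set, 6 had a group mean above the median: Hoxa3, Hoxa5, Hoxa9, Hoxb3, Hoxb4 and Hoxd8. In all of these except Hoxd8, no other probe set was above the median on any array. The mean of the brightest other probe set was lower by 1.59 log2 units for Hoxa3, 2.85 for Hoxa5, 2.41 for Hoxa9, 1.96 for Hoxb3 and 1.79 for Hoxb4. When the probe sets of a gene were averaged, 5 Hox genes were above the median in place of 10: Hoxa7, Hoxb2, Hoxc9, Hoxd8 and Hoxd9. Hoxa7, Hoxb2, Hoxc9 and Hoxd9 had 1 probe set each, so averaging could not change them and is no check of them. Of the 6 genes with more than 1 probe set, only Hoxd8 stayed above.

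The deposited signal of the arrays differed. Replicate 1 of medial E10.5 had a deposited median log2 signal of 2.37 and replicate 1 of medial E11.5 one of 2.47, against 5.20 to 5.73 on the other 9 arrays, and quantile normalization set all arrays to one distribution. After it, the signal of an 18S rRNA control was 8.85 and 8.36 on these arrays and 8.69 at E14.5, against 7.50 to 7.79 on the other 8. Of the 10 genes above the median, 5 had their highest value on one of these arrays. On medial E10.5 replicate 1, 16 of the 48 Hox probe sets had a deposited value shared with at least 100 probe sets, so they have no order there, against 3 or fewer on each other array. Clustering on the controls spiked into the samples divided the arrays into 4 groups. The E9.7 arrays fell in group 1 with the second replicates of medial E10.5 and medial E11.5 and the first of lateral E10.5. The pair of low-signal arrays made group 2, and the E14.5 array alone made group 4. Medial E10.5 replicate 3 fell in group 3 with lateral replicates 2 and 3 of that stage. The labels do not say what these groups stand for.

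No Hox gene passed the test between medial and lateral tissue at E10.5. With limma over 11968 genes that reached the median on at least 2 of 8 arrays, 0 of 9 Hox genes tested were called at an adjusted p under 0.05 (Benjamini-Hochberg), against 4.63% of all genes tested. Before adjustment, 0 of 9 had a p under 0.05, against 16.1% of all genes tested. The differences, medial minus lateral, ran from -0.25 for Hoxb3 to 0.22 for Hoxa3, with SEs of 0.12 to 0.31. The smallest adjusted p, 0.433, was that of Hoxd9, which averaged 4.71 ± 0.14 in medial tissue and 4.93 ± 0.14 in lateral tissue (SD, n = 3 each, limma). At 1 of 9 genes, Hoxa5, the arrays of medial and lateral tissue did not overlap, against 25% of all genes tested.

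The filter kept the 9 genes with signal on the 8 replicated arrays and left out 24 of 33. When all 18194 genes were tested with limma, 0 of 33 Hox genes were called, against 2.75% of all genes, and 1 of 33 had an unadjusted p under 0.05, against 12.5%. This was Hoxd13, a gene of the limb ends and tail, with the largest difference, -0.42 ± 0.18 (SE), at an adjusted p of 0.361. It had signals of 3.68, 3.81 and 4.33 in medial tissue and 4.39, 4.35 and 4.35 in lateral tissue, which did not overlap but lay close to the range of dim signal. The second Hoxd13 probe set differed in the opposite direction, by 0.23, with overlap between the tissues. Groups did not overlap at 5 of 33 Hox genes, against 20.4% of all genes. At the level of probe sets, 0 of 48 were called by limma, against 1.51% of all probe sets, 1 of 48 had an unadjusted p under 0.05, against 9.7%, and groups did not overlap at 8 of 48, against 17%. One setting moved the count: with limma array weights, which called 2833 of all genes tested, Hoxa5, Hoxa9, Hoxb3 and Hoxd9 were called lower in medial tissue, by at most 0.58 log2 units.

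**Figure D3:**
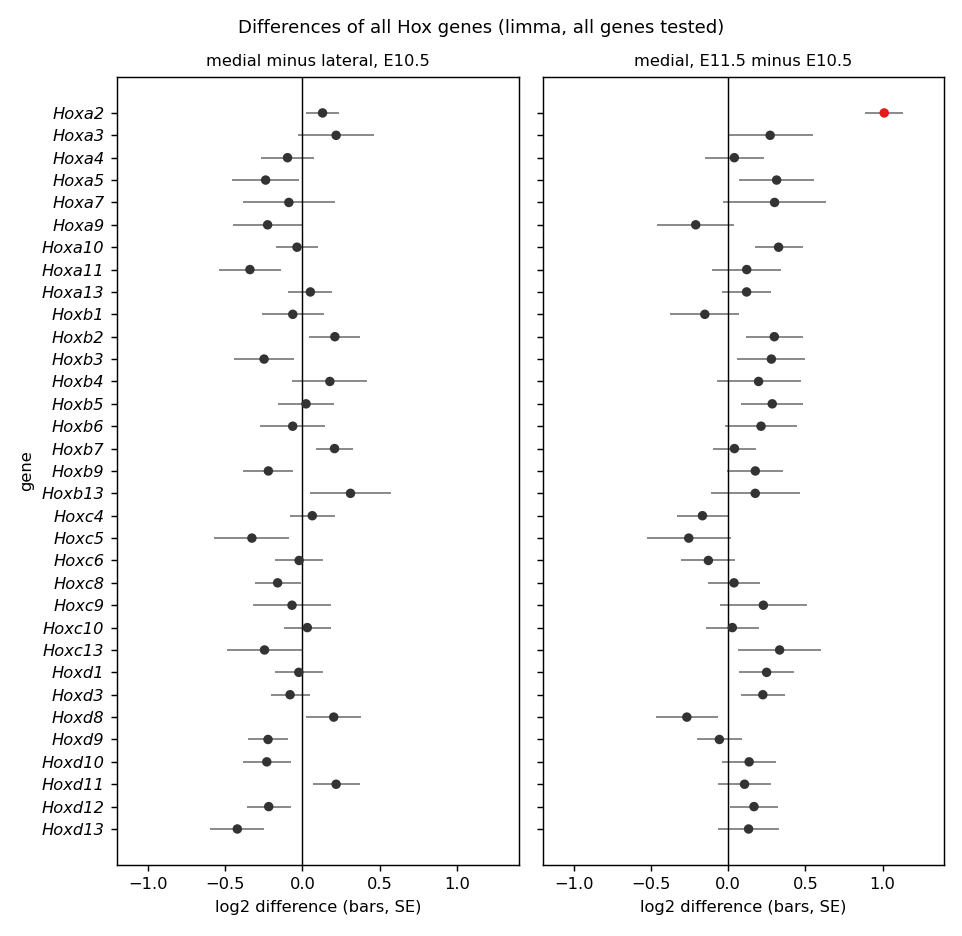
Log2 difference (x axis, bars SE, limma over all genes) of each of the 33 Hox genes between medial and lateral tissue at E10.5 (left) and between medial E11.5 and E10.5 (right). Hoxa2 at E11.5, at 1.01 (red), was the only one called in either panel.

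At E9.7, with 1 array of each tissue and no test, 0 of 33 Hox genes differed 2-fold between medial and lateral tissue. Of these, 4 reached the median there, and 0 of 4 stand against 1.76% of all genes that reached it. The differences ran from -0.35 for Hoxd3 to 0.65 for Hoxb2, which had 4.64 in medial tissue and 3.99 in lateral tissue. Between E10.5 and E9.7, 0 of 33 lay 2-fold or more outside all arrays of the other stage in medial or in lateral tissue. Among genes that reached the median these were 0 of 10 Hox genes in medial tissue, against 0.977% of all genes, and 0 of 7 in lateral tissue, against 1.34%. The differences between these stages ran from -0.54 for Hoxd1 to 0.60 for Hoxc6 in medial tissue and from -0.46 for Hoxb13 to 0.74 for Hoxb3 in lateral tissue.

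Between E11.5 and E10.5 in medial tissue, no Hox gene that met the filter passed the test, and Hoxa2, which did not meet it, was higher at E11.5. Of the 9 genes tested by limma, 0 were called, against 6.92% of all genes tested, and 0 had an unadjusted p under 0.05, against 18%. The stages did not overlap at 0 of 9, against 28.4%. Their differences ran from -0.21 for Hoxa9 to 0.31 for Hoxa5, and the smallest adjusted p was 0.467 for Hoxb2, with a difference of 0.30 ± 0.18 (SE). Of the 9, 7 had a higher mean at E11.5 after quantile normalization, and these 7 had a lower one with the values as deposited. That scaling moved the median of all genes to -0.58, against 0.01 after quantile normalization. The low-signal arrays are 1 of 2 at E11.5 and 1 of 3 at E10.5.

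Hoxa2, the selector gene of the arch behind the jaw, had signals of 3.69 and 3.69 in medial tissue at E11.5, against 2.74, 2.63 and 2.67 at E10.5. It was 2.53 at E9.7 and 2.81 at E14.5 in medial tissue, and 2.74 at E9.7 and 2.51, 2.62 and 2.51 at E10.5 in lateral tissue. Both E11.5 arrays were above the other 9 arrays, which spanned 2.51 to 2.81. The difference between E11.5 and E10.5 was 1.01 ± 0.12 on the log2 scale (SE), with an adjusted p of 0.000931 by limma over all 18194 genes. It made 1 of 33 Hox genes called, in the higher direction, against 4.23% of all genes called in either direction and 2.78% called higher, so the count itself is near the share of all genes.

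No Hoxa2 value was above 3.69, so all lay in the range of olfactory receptor genes, under 4.33. The difference was 1.06 within group 1 of the spiked-in controls and 0.95 within group 2, each with 1 array per stage. Without both low-signal arrays it was 1.04, at an adjusted p of 0.00808 by limma. The call ended when arrays were only centred on their medians (1.05, adjusted p = 0.164) and with values as deposited (0.44, adjusted p = 0.911), also by limma. On medial E10.5 replicate 1 the deposited Hoxa2 value was shared with 503 probe sets.

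Among the dim probe sets of the next paralogues, limma over all 45101 probe sets called 2 of 48 Hox probe sets higher at E11.5, and 0 lower, against 2.12% of all probe sets called in either direction and 1.42% called higher. One was that of Hoxa2. The other was the second Hoxb3 probe set, which had 3.84 and 3.74 at E11.5, against 2.74, 2.92 and 3.17 at E10.5. Its difference was 0.85 ± 0.18 (SE), with an adjusted p of 0.0404 by limma. The call did not hold in most alternatives: without 1 array at a time the adjusted p ran from 0.0348 to 0.217 and was past 0.05 in 4 of 5, and without both low-signal arrays it was 0.215.

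The s_at probe set of Hoxa3 had 4.31 and 3.57 at E11.5, against 3.21, 3.10 and 3.01 at E10.5, a difference of 0.83 ± 0.22 (SE) with an adjusted p of 0.110 by limma. The second Hoxb4 probe set had 3.63 and 3.52 at E11.5, against 2.93, 2.93 and 3.16 at E10.5, a difference of 0.57 ± 0.15 (SE) with an adjusted p of 0.103 by limma. Neither passed the test, although the stages did not overlap in either. The stages did not overlap at 8 of 48 Hox probe sets, against 21.2% of all probe sets. These dim probe sets were picked out after their values were seen, and the brighter probe sets of Hoxb3, Hoxa3 and Hoxb4 differed by 0.28, 0.27 and 0.20 with overlap between the stages.

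**Figure D4:**
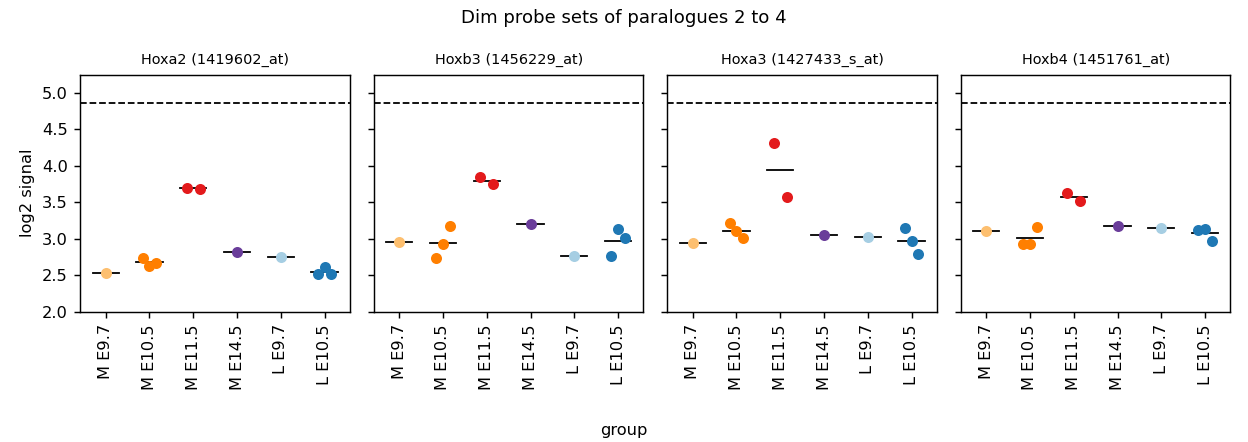
Log2 signal (y axis) on each array by group (x axis, medial then lateral; points arrays, lines means) of the Hoxa2 probe set and the dim probe sets of Hoxb3, Hoxa3 and Hoxb4, with the median of all values dashed. Both E11.5 arrays were above all 3 E10.5 medial arrays in each panel, and all values were under 4.86.

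Markers of other cell types moved between these stages too, where 6.92% of all genes tested were called in either direction. That share stands beside every count of markers called here. A marker dim at E10.5 could enter the test through the 2 E11.5 arrays alone, so the tested markers favour those that rose. Muscle precursor markers rose by limma at 7 of 8 tested genes, led by Myog at 5.48 and Myod1 at 4.13 on the log2 scale, and their summed linear signal was 2570 to 2780 at E11.5, against 318 to 351 at E10.5. Neuron and hindbrain markers rose at 2 of 4 tested genes, Nefl at 3.48 and Nefm at 2.90, with a summed signal of 648 to 696 at E11.5, against 237 to 263 at E10.5. The other tested genes, Tubb3 and Elavl3, differed by -0.30 and 0.12 and did not pass the test. Of the neuron markers, Phox2a, which marks branchial motor and autonomic neurons, stayed at a mean of 3.29 at E11.5 and 3.27 at E10.5.

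Glial markers rose at 1 of 3 tested genes, Erbb3 at 1.78, against 6.92% of all genes called. Their summed signal was 549 to 718 at E11.5, against 217 to 262 at E10.5. It rests mostly on Erbb3, which averaged 9.08 at E11.5, against 6.08 for Sox10 and 4.18 for Fabp7. Sox10 and Fabp7 differed by 0.11 and 0.59 between the stages and did not pass the test. Heart and outflow markers rose at 3 of 3 tested genes, Nkx2-5, Tnnt2 and Myl4, of 6 measured. Tnnt2 and Myl4 were dim at E10.5 and entered the test through the E11.5 arrays alone, so the count favours a rise. Myl7, Tbx5 and Nppa were measured but not tested, with means under the median of all values at both stages. The summed signal of the heart and outflow markers was 277 to 456 at E11.5, against 98.7 to 104 at E10.5. Several of these markers are also used by early skeletal muscle. Arch mesenchyme markers fell at 7 of 12, Msx1 by 3.47 and Dlx5 by 3.92, with a summed signal of 3840 to 4310 at E11.5, against 10000 to 11100 at E10.5. Epithelial markers fell at 5 of 6, with a summed signal of 1010 to 1020 at E11.5, against 2060 to 2340 at E10.5. Endothelial markers fell at 2 of 6, with sums of 738 to 783 at E11.5, against 1060 to 1090 at E10.5.

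Pharyngeal endoderm markers rose at 2 and fell at 1 of 5 tested genes, against 6.92% of all genes called. Their sums were 594 to 670 at E11.5, against 369 to 459 at E10.5. Macrophage markers rose at 1 of 3, with sums of 282 to 298 at E11.5, against 169 to 200 at E10.5. Red cell markers fell at 1 of 6, with sums of 22800 to 26000 at E11.5, against 27600 to 29600 at E10.5. Of thyroid markers, 1 was tested and did not pass, and the summed signal was 72.1 to 72.5 at E11.5, against 70.4 to 74 at E10.5. The part of these cell types in the Hoxa2 difference was not tested.

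At E14.5, Hoxd8 was the only Hox gene past 2-fold. Hoxd8 acts at trunk levels and had 6.29 at E14.5, against 3.41 and 3.71 in medial tissue at E11.5, a difference of 2.73 log2 units. The E11.5 values were under 4.33, in the range of olfactory receptor genes, so no fold is given. On the earlier arrays it was 3.42 at E9.7 and 4.20, 3.58 and 3.71 at E10.5 in medial tissue, and 3.45 at E9.7 and 3.53, 3.80 and 3.55 at E10.5 in lateral tissue. The single E14.5 array thus stood above all 10 others. The second Hoxd8 probe set had 5.07 at E14.5, against 3.11 and 2.56 at E11.5, a difference of 2.24, and lay between 2.54 and 3.11 on the 10 earlier arrays.

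Of the 33 Hox genes, 10 reached the median in that comparison, and 1 of 10, Hoxd8, lay 2-fold or more outside both E11.5 arrays, against 14.6% of all 12566 genes that reached it. The count is thus near the share of all genes. The other Hox genes differed by -0.87 to 0.31, and the lowest was Hoxa2, back at 2.81. No test was made with 1 array at E14.5, and stage, tongue tissue and control group 4 cannot be told apart in it. The neighbours of Hoxd8 in its cluster stayed within 2-fold: Hoxd9 was 4.89 at E14.5, against 4.59 and 4.72 at E11.5, and Hoxd10 was 2.66, against 2.68 and 2.45.

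**Figure D5:**
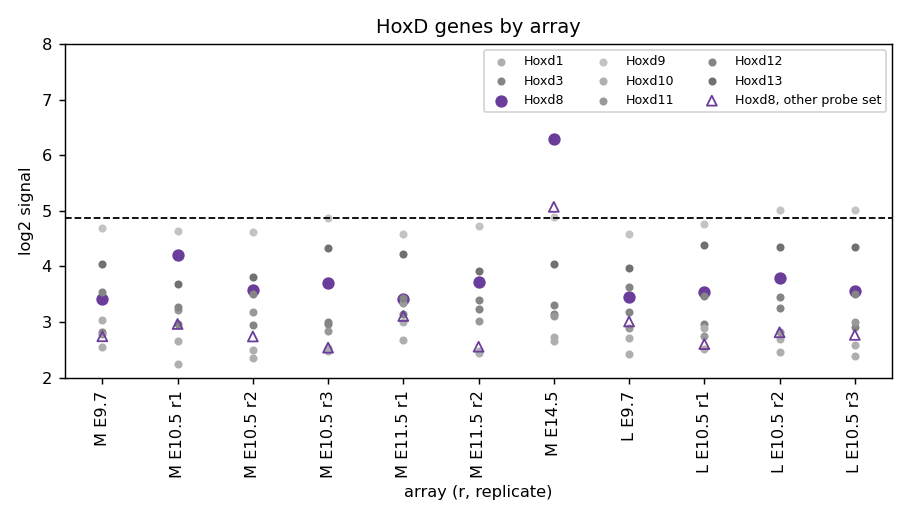
Log2 signal (y axis) of the 8 HoxD genes on 11 arrays (x axis, medial left of lateral), with Hoxd8 as large purple points, its second probe set as open triangles and the median of all values dashed. Hoxd8 reached 6.29 and 5.07 by its probe sets at E14.5, while it lay at or under 4.20 on the other 10 arrays.

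Genes with a profile like that of Hoxd8 were found by Pearson correlation over the 11 arrays among 12953 genes. The closest were Enpep, Arsj, Myom2, Reps2 and Tmem182, at r of 0.99, 0.99, 0.98, 0.98 and 0.98. Without the E14.5 array these were 0.91, 0.83, 0.68, 0.62 and 0.65, and the 11 arrays share tissues and stages. In all, 100 genes had an r of at least 0.95 with Hoxd8, against 0 to 7 with each of the other 9 Hox genes above the median. Hoxd8 was high on the E14.5 array alone, so any gene high only there has a high r with it. The 100 therefore rest on that array, and they were not counted without it. At E14.5 the summed signal of heart and outflow markers was 9130, against 277 to 456 at E11.5, of glial markers 1230, against 549 to 718, of muscle precursor markers 4860, against 2570 to 2780, and of epithelial markers 5290, against 1010 to 1020. It was 1190 for endoderm markers at E14.5, against 594 to 670 at E11.5, 576 for macrophages, against 282 to 298, 875 for endothelium, against 738 to 783, and 87.6 for thyroid, against 72.1 to 72.5. Neuron markers summed to 676 at E14.5, within the 648 to 696 at E11.5, and arch mesenchyme markers to 3900, within 3840 to 4310. These 2 sums hide moves in both directions. Of 6 neuron markers that reached the median, 3 lay 2-fold or more above both E11.5 arrays and 1 under them. Of 9 such arch mesenchyme markers, 2 lay above and 2 under. The share of all genes, in either direction, was 14.6%. Red cell markers summed to 5660 at E14.5, against 22800 to 26000 at E11.5. The part of these cell types in the Hoxd8 difference was not tested.

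Cofactor genes of the Hox factors were mostly above the median. Of 9 listed cofactors of the Pbx, Meis and Pknox families, which bind DNA beside Hox proteins, 8 were measured and 7 tested. All 7 were above the median on every array, while Pbx4 lay between 3.76 and 4.11, and 57% of all genes had means above the median in all 6 groups. By limma, 1 was higher in medial than lateral tissue at E10.5, Meis2 at 0.93 ± 0.12 (SE, adjusted p = 0.00222), and 1 lower, Pknox2 at -1.14 ± 0.16 (SE, adjusted p = 0.00307), against 4.63% of all genes called. Their median difference was 0.04, against -0.01 over all genes tested. At E11.5, 1 of 7 was higher than at E10.5 by limma, Pknox2 at 0.91 ± 0.17 (SE, adjusted p = 0.0146), and none lower, against 6.92% of all genes called.

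Of 16 listed genes that regulate Hox expression upstream, 14 were measured and 9 tested. None was higher and 5 of 9 were lower in medial than in lateral tissue at E10.5 by limma, against 4.63% of all genes called, with a median difference of -1.08, against -0.01 over all genes tested. A gene dim in medial tissue could enter the test through the lateral E10.5 arrays alone, as Gbx2 did. The count and the median difference therefore favour genes lower in medial tissue. Gbx2, a factor of the anterior hindbrain and the arch, averaged 2.92 in medial tissue and 6.91 in lateral tissue, a difference of -3.98 (adjusted p = 1.37e-05). Cyp26a1, which breaks down retinoic acid, differed by -2.26 (adjusted p = 2.45e-05) and Aldh1a2, which makes it, by -1.30 (adjusted p = 0.00258). Rarg, a retinoic acid receptor, differed by -1.08 (adjusted p = 0.0122).

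At E11.5 in medial tissue, 4 of the 9 were higher than at E10.5 and none lower by limma, against 6.92% of all genes called. Aldh1a2 averaged 7.61 at E11.5 and 5.37 at E10.5, a difference of 2.24 (adjusted p = 0.000172), and Cyp26b1 differed by 1.15 (adjusted p = 0.00255). Cyp26a1 and Gdf11 differed by 0.73 and 0.74. The Cdx genes, which act on trunk Hox genes, and Egr2, which acts in the hindbrain, did not pass the filter: Cdx1, Cdx2 and Cdx4 had no value above 4.80 and Egr2 none above 4.29.

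Polycomb and trithorax genes, which keep Hox clusters silent or active, were measured for 20 of 21 and tested for 19. All 19 were above the median on every array, while 57% of all genes had means above it in all 6 groups. By limma 1 of 19 was lower in medial than lateral tissue at E10.5, Cbx8 at -0.62 ± 0.12 (SE, adjusted p = 0.0199), and none was higher. The count is near the share of all genes called, 4.63%. None passed the test between E11.5 and E10.5, against 6.92% of all genes called. On the single E14.5 array, 2 of 20 were at least 2-fold under both E11.5 arrays, against 14.6% of all genes 2-fold outside in either direction: Pcgf2, which had 5.0 at E14.5 and a mean of 7.06 at E11.5, and Cbx2, which had 7.92 at E14.5 and a mean of 9.81 at E11.5.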

How the data were processed

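RNA from medial and lateral mandibular arch was measured on 11 arrays in 6 groups. The deposited values are log2 signals made by the authors with Affymetrix Expression Console 1.1, per the submitters' processing notes. The algorithm is not given in the sources used here, and the log base was inferred from the range of the values. No detection p-values or scanner intensities were used.

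Values were quantile normalized over the 11 arrays with limma 3.58.1 in R 4.3.3. Of 45101 probe sets, 34958 had 1 gene symbol, 932 several and 9211 none here. Symbols were updated by Entrez ID from RefSeq for 34754 probe sets. A gene took the probe set with the highest mean, and entered the test if 2 or more of the 8 arrays in groups with replicates were at or over the median of all values. The fit had 1 mean per group and 5 residual degrees of freedom, with Benjamini-Hochberg adjustment over all genes tested and a call at an adjusted p under 0.05. Comparisons with 1 array on a side have no test and count genes whose single array lies 2-fold or more outside the range of the other group. Precision is limited by how few arrays there are. The fit was checked on simulated data.

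The members and lists were chosen with earlier results of these data known. Values per array are given for Hox genes above the median in any group or called, for the HoxD neighbours of Hoxd8, and for dim probe sets chosen after their values were seen. From the other lists at most 4 members each are named, those of smallest adjusted p or, without a test, of largest difference, besides genes at or under the median that describe a list. Replicate numbers were checked for pairing by the correlation of deviations from group means. It was 0.13, -0.29 and 0.48 between medial and lateral tissue at E10.5, and 0.59 and 0.39 between E11.5 and E10.5. Between the stages both were positive, and medial replicate 1 of each stage is a low-signal array. The main fit did not treat the numbers as pairs, and a fit with replicate number as a block was an alternative. Alternatives covered scaling, filter, probe sets, variance model, weights, samples, replicate number, spiked-in control group and threshold. The tests of single probe sets and of Hoxa2 under each alternative were added after the data were seen.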

Additional observations from a re-analysis of the deposited data

How the results depend on the processing

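Of the 9 tested Hox genes, none was called between medial and lateral tissue at E10.5 except with array weights, which called 4 (2833 of all genes, against 554): Hoxa5 at -0.48, Hoxa9 at -0.58, Hoxb3 at -0.49 and Hoxd9 at -0.33. Without 1 array at a time the count was 0 to 0. For E11.5 against E10.5 the count was 1 without the filter and with a filter at the 25th percentile (Hoxa2), 1 with spiked-in control group as a fixed effect (Hoxb3 at 0.45, 2182 of all genes, against 828), 2 with probe sets tested singly, and 0 to 0 without 1 array at a time. With values as deposited 2 and 1 of all genes were called in these comparisons, against 554 and 828. With the replicate number as a block, 0 Hox genes were called in both comparisons. It gave 779 calls of all genes between medial and lateral tissue and 868 between stages, and changed no Hox call. Hox genes above the threshold numbered 4 at the 60th percentile, 0 at the 75th percentile, 14 at the 95th percentile of olfactory receptor genes, 14 with values as deposited, 5 with probe sets averaged and 10 to 11 without 1 array at a time.

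Directions changed for small differences that were not called, and the cause was not tested. Medial minus lateral, values as deposited gave -0.96 for Hoxa3, -0.95 for Hoxb2 and -1.01 for Hoxb4, where the median of all genes was -1.0. Array weights gave -0.032 for Hoxb2, and the control group effect -0.055 for Hoxa3 and -0.10 for Hoxb4. Without 1 array, Hoxb4 ran from -0.070 to 0.30, Hoxa7 from -0.30 to 0.093 and Hoxc9 from -0.21 to 0.16. For E11.5 minus E10.5, values as deposited gave -0.35 for Hoxa3, -0.30 for Hoxa5, -0.32 for Hoxa7, -0.29 for Hoxb2, -0.32 for Hoxb3, -0.41 for Hoxb4, -0.38 for Hoxc9 and -0.010 for the second Hoxb4 probe set. Without the low-signal arrays Hoxa5 was -0.026, Hoxa7 -0.11 and Hoxc9 -0.075. Hoxd9 was 0.0044 with the replicate block and 0.030 with the control group effect. Without 1 array, Hoxa5 ran from -0.10 to 0.73, Hoxa7 from -0.32 to 0.92, Hoxb4 from -0.17 to 0.57, Hoxc9 from -0.16 to 0.62 and Hoxd9 from -0.12 to 0.026.

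Hoxa2 was called at E11.5 in all alternatives run except values as deposited and arrays centred on their medians. Without 1 array it ran from 0.99 to 1.04. Among dim probe sets, that of Hoxa3 was called without medial E11.5 replicate 2 (1.20, adjusted p = 0.0262 by limma; range over arrays left out 0.0262 to 0.535), and that of Hoxb4 with the control group effect (0.60, adjusted p = 0.0417 by limma). Hoxd8 at E14.5 stayed past 2-fold in every alternative run, at 2.24 with its second probe set, 2.48 with probe sets averaged and 4.09 with values as deposited. Within control groups the largest tested difference was -0.56 in group 1 and 0.39 in group 3 for medial minus lateral, and 0.71 in group 1 and 0.58 in group 2 for E11.5 minus E10.5. Signal near the background limits the genes under the median, and 1 array limits E9.7 and E14.5.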

Other observations

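Probe sets with several Hox symbols were not counted among the members. The brighter one named for Hoxd4 and Hoxd3 had signals of 4.57 at E9.7, 5.27, 4.37 and 4.53 at E10.5, 4.90 and 4.73 at E11.5 and 4.89 at E14.5 in medial tissue, and 4.47 at E9.7 and 4.62, 4.90 and 4.92 at E10.5 in lateral tissue. It had values on both sides of the median of all values in the 3 groups of more than 1 array. The other one for these genes lay between 3.32 and 3.68, and the one named for Hoxb8 and Hoxb7 between 2.53 and 2.91.

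Transcripts and genes inside or beside the clusters were read as well. Hoxb5os, an antisense transcript of the HoxB cluster, had 4.92, 5.14 and 5.84 in medial tissue and 5.31, 6.25 and 6.20 in lateral tissue at E10.5, a difference of -0.62 that did not pass the test (adjusted p = 0.363 by limma). Antisense transcripts of Hoxa11 and Hoxd3 had no value above 3.34. Of 20 listed neighbours 14 were measured and 11 tested. By limma at E10.5, 2 of 11 were higher in medial than lateral tissue and none was lower, against 4.63% of all genes called. These were Hibadh at 0.71 ± 0.098 (SE, adjusted p = 0.00318) and Copz2 at 0.67 ± 0.13 (SE, adjusted p = 0.0171). At E11.5, 1 of 11 was lower than at E10.5 by limma and none higher, against 6.92% of all genes called. It was Hibadh, with a difference of -0.53 ± 0.11 (SE, adjusted p = 0.0205). Hibadh, an enzyme of valine breakdown beside the HoxA cluster, and Copz2, a vesicle coat subunit beside the HoxB cluster, have no homeodomain. Evx1 and Evx2, homeobox genes at the ends of the HoxA and HoxD clusters, had values of 3.79 to 4.66 and 4.61 to 5.53.

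Over the 11 arrays the median range of a Hox gene, highest minus lowest, was 0.76 log2 units, against 0.87 over all genes. Over the 8 arrays without the E14.5 and low-signal arrays it was 0.61, against 0.55. Of the 33 Hox genes, 11 spanned at least 1 log2 unit over 11 arrays, against 39.1% of all genes. Over those 8 arrays only 2 of the 33 did, and the share of all genes was not computed there.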
